A study of Arabidopsis thaliana with 9 samples.

Results

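The triple mutant cna-2 phb-13 phv-11 of Arabidopsis thaliana was set against wild type on 6 of the 9 Affymetrix ATH1 arrays of the series, 3 for each genotype. Arrays were taken by their titled genotype and number, and 22746 probe sets, all but the Affymetrix controls, were compared. Wild type was Col er-2, so the controls carry the er-2 allele, and the labels do not say whether the mutants carry it too. All genotypes were sampled 4 days after germination as the last 0.5 mm of the primary root, cut by hand, with about 200 tips in each sample, from untreated plants on medium with 1% sucrose. The other 3 arrays are of a quadruple mutant that adds rev-6, and whose PHV allele is labelled both phv-11 and phv-6. They enter the estimate of the spread, and their values are given beside some genes. How plants and plates were shared out over the replicates is not labelled, so p-values measure the spread between these samples, which may be partly technical.

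CNA, PHB and PHV encode HD-ZIP III proteins, plant transcription factors that combine a homeodomain and a leucine zipper with a lipid-binding START domain. In the root they act in the stele, where a small RNA made in the endodermis limits their transcripts to the centre and where their dose sets which kind of xylem forms. In shoots the same family sets the upper side of leaves and maintains the meristem.

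PHV (AT1G30490), the mutated gene that could be read, had log2 signals of 7.27, 7.14 and 7.28 on the wild-type arrays, 4.71, 4.77 and 4.76 on the triple-mutant arrays and 5.20, 5.22 and 5.03 on the quadruple-mutant arrays. The mutants lay below wild type with no overlap, and the triple mutant was 5.58-fold lower (log2 change -2.48, standard error 0.09, limma adjusted p = 8.49e-07). CNA and PHB were not analysed here. Array medians were 5.79 to 5.89 in wild type and 5.92 to 5.95 in the triple mutant, and the hybridization spike-in controls, which are added after the RNA is labelled, averaged 9.83 to 10.07 and 10.16 to 10.29. Both therefore lay higher on the triple-mutant arrays. A fit with each array centred on its median is given below, while the part of the spike-in controls was not tested. Of 15 measured cell type markers out of 129 sought, RCA, a photosynthetic gene of green tissue, was high on wild-type replicate 3 alone, at 6.51 against 4.55 and 4.68 on the other wild-type arrays. The mean of 23 nuclear photosynthesis genes, RCA among them, was also highest on that array. It was 6.23 there, against 5.66 and 5.54 on the other wild-type arrays and 5.67 to 5.84 on the triple-mutant arrays. The part of this array in the changes of these genes was not tested.

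The difference between the triple mutant and wild type was mostly one of rises. Of the 22746 probe sets 393 passed (limma, adjusted p under 0.05), or 1.73%, of which 337 (1.48%) were higher and 56 (0.246%) lower in the triple mutant. Among the higher ones the log2 change had a median of 0.84 and among the lower ones of -0.72, and 122 higher and 13 lower probe sets changed at least 2-fold. The median signal of the higher ones was 6.06 on wild-type, 7.10 on triple-mutant and 6.22 on quadruple-mutant arrays. For the lower ones it was 6.44, 5.62 and 6.61. Of these calls, 212 higher and 36 lower probe sets also differed between the mutants. By these medians the quadruple mutant, which has the same genes mutated and REV besides, lay nearer to wild type. The reason was not tested. All 393 had 3 triple-mutant values on one side of the 3 wild-type values, as had 1794 (7.89%) of all probe sets on the higher and 1606 (7.06%) on the lower side. Arrays with the same number deviated together, so the number was also fitted as a block, and 1152 probe sets then passed (5.06%), 941 higher (4.14%) and 211 lower (0.928%), among them all of the 393. The excess of rises shrank with the scaling and with 1 array: 214 were higher (67.7% of the calls, against 85.8%) and 102 lower once each array was centred on its median, and 445 were higher (68.8%) and 202 lower without wild-type replicate 1. The count of 393 changed by over 1.5 times when single arrays were left out: it was 647 and 194 without wild-type replicates 1 and 2, 182, 199 and 254 without the triple-mutant arrays in turn, and 249 without quadruple-mutant replicate 1. In whole tips, fewer cells of a type and less RNA per cell cannot be told apart.

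**Figure D1:**
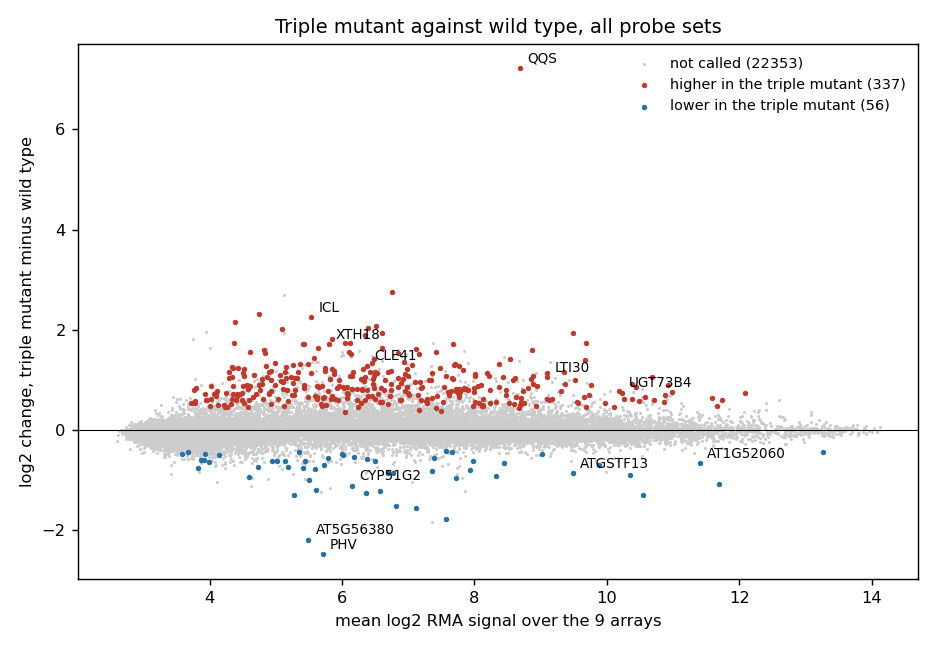
Log2 change of the triple mutant minus wild type (vertical axis) against the mean log2 signal over the 9 arrays (horizontal axis), 1 point for each of the 22746 probe sets. The 337 higher probe sets (red) and 56 lower ones (blue) are spread over the range of signal, and QQS stands apart from all others at a log2 change of 7.22.

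Annotation limited what could be named. Of 13513 probe sets with 1 gene in the platform annotation 167 (1.24%) were higher and 33 (0.244%) lower, and of 1580 probe sets whose gene has a symbol beyond its locus number, 38 (2.41%) were higher and 8 (0.506%) lower. These last shares are the nearest background for the gene lists that follow, since members were found by symbol or full name. Of 59 lists with at least 3 measured members, 28 held a called member and 31 held none. Some counts of genes at an unadjusted p under 0.05 are also given. Over all probe sets 8.12% were higher and 5.43% lower at that level. The share among symbol-bearing probe sets was not computed at that level or with the replicate block, so those list counts lack their nearest background.

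**Figure D2:**
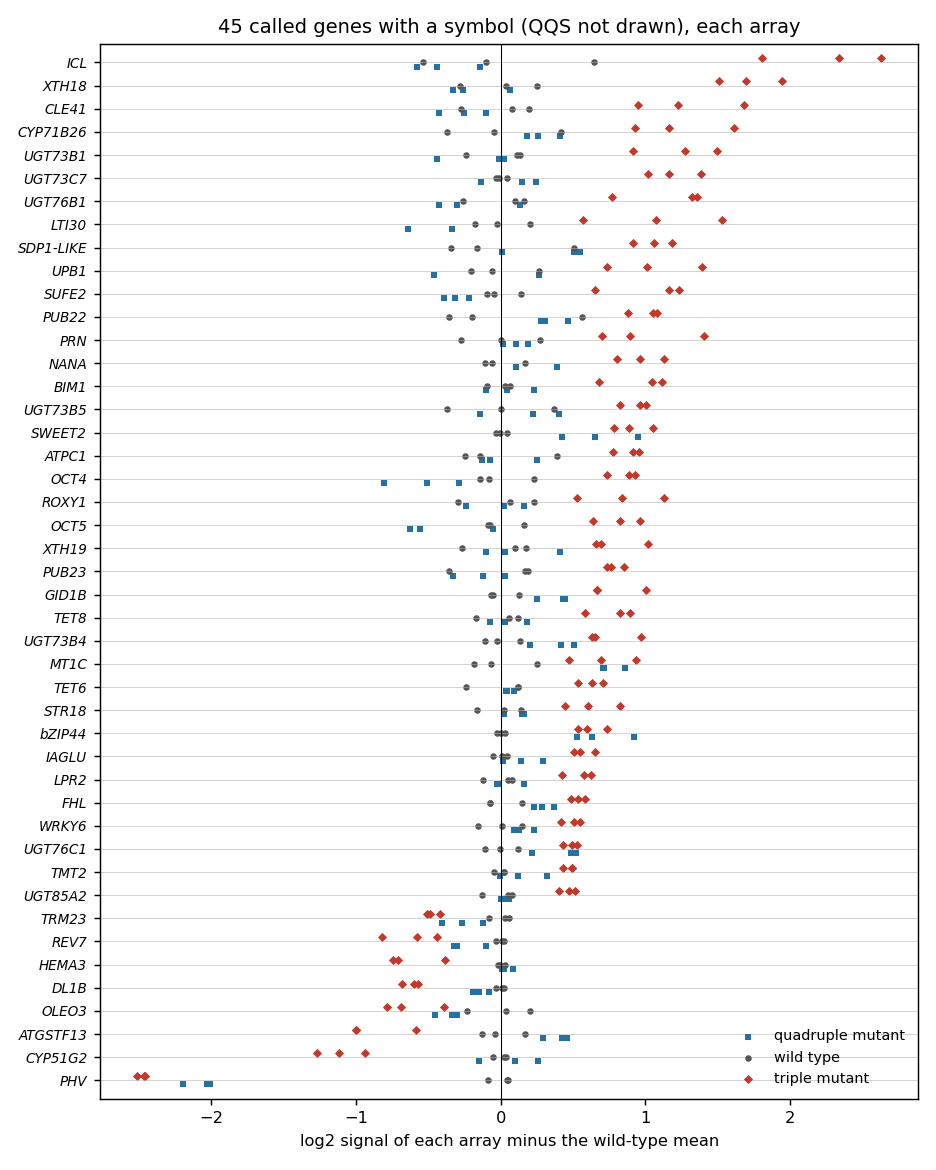
Log2 signal of each array minus the wild-type mean of the gene (horizontal axis) for the 45 called genes with a symbol other than QQS, ordered by the change in the triple mutant. Circles are wild-type, diamonds triple-mutant and squares quadruple-mutant arrays. In every row the 3 diamonds lie on one side of the 3 circles, as was so for all 393 called probe sets.

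A starch regulator and 2 genes of lipid breakdown rose, while an oil body gene fell. QQS (AT3G30720), a gene found in this species alone that is known to lower starch content, read 5.65, 4.07 and 3.90 on the wild-type arrays against 11.95, 11.67 and 11.65 on the triple-mutant arrays, a log2 change of 7.22 (standard error 0.36, limma adjusted p = 1.38e-05). ICL (AT3G21720) encodes isocitrate lyase, the glyoxylate cycle enzyme with which seedlings turn stored fat into sugar; it read 4.38, 5.55 and 4.81 in wild type and 6.72, 7.54 and 7.25 in the triple mutant. The groups did not overlap, and ICL was 4.78-fold higher (log2 change 2.26, standard error 0.29, limma adjusted p = 0.00398). On the quadruple-mutant arrays ICL was at 4.47, 4.77 and 4.33, within or below the wild-type range, whereas QQS was at 9.65 to 9.88. QQS was the 1 called of 8 genes of starch and sugar metabolism, of which 4 had negative log2 changes (median 0.03). SDP1-LIKE (AT3G57140), a relative of the lipase that opens oil bodies, rose by 1.05 (standard error 0.21, limma adjusted p = 0.0392) from wild-type signals of 4.06 to 4.91. With ICL it made 2 higher and 0 lower of 6 measured genes of lipid breakdown and the glyoxylate cycle (median log2 change 0.17, against -0.02 over all probe sets). OLEO3 (AT5G51210), an oleosin of the oil body coat, fell by 0.62 (standard error 0.13, limma adjusted p = 0.0497), with wild-type values of 5.11 to 5.55 and triple-mutant values of 4.56 to 4.96. When 1 array at a time was left out, SDP1-LIKE and OLEO3 each lost their call in 7 of 9 fits, with values up to 0.137 without wild-type replicate 2 for SDP1-LIKE and 0.156 without triple-mutant replicate 3 for OLEO3.

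A pair of sugar carriers, both of the vacuole membrane, rose. SWEET2 (AT3G14770), a vacuolar sugar uniporter of roots, read 4.43, 4.45 and 4.50 in wild type and 5.24, 5.35 and 5.51 in the triple mutant, 1.88-fold higher (log2 change 0.91, standard error 0.13, limma adjusted p = 0.00708). TMT2 (AT4G35300), which pumps hexoses into the vacuole, read 5.99 to 6.06 and 6.46 to 6.53 (log2 change 0.47, standard error 0.09, limma adjusted p = 0.0374), a call that ended in 7 of 9 fits lacking 1 array (adjusted p at most 0.137, without triple-mutant replicate 1). These were 2 of 21 genes of the list, or 9.52% against 2.41% of all symbol-bearing probe sets, with 0 called lower and a median log2 change of -0.14. The list as a whole did not rise: 16 of the 21 changes were negative. At an unadjusted p under 0.05, 3 were higher and 5 lower. A mean log2 signal under 5 over the 9 arrays was found for 18 of the 21. With the replicate block, TMT1, the close relative of TMT2, was also higher (0.38, limma adjusted p = 0.0331 with the block) and the vacuolar fructose carrier SWEET17 lower (-0.56, limma adjusted p = 0.0303 with the block). OCT4 (AT3G20660) and OCT5 (AT1G79410), named as organic cation and carnitine transporters, both rose, by 0.85 (standard error 0.14, limma adjusted p = 0.0174) and 0.81 (standard error 0.15, limma adjusted p = 0.0299). OCT4 stood at 5.78 to 6.15 in wild type, at 6.66 to 6.85 in the triple and at 5.11 to 5.64 in the quadruple mutant; the mutants lay on opposite sides of wild type. Both calls ended without triple-mutant replicate 1 or 2 or wild-type replicate 2, and that of OCT5 also without wild-type replicate 1, with adjusted p up to 0.0793 for OCT4 and 0.111 for OCT5. AT2G26690, listed as NPF6.2 of the nitrate and peptide carrier family, was the 1 called gene of 13 in the nitrogen list. It read 4.58, 3.83 and 4.24 in wild type and 5.15, 5.29 and 5.70 in the triple mutant (log2 change 1.17, standard error 0.21, limma adjusted p = 0.0233), and its call ended in 4 of the 9 fits without 1 array (up to 0.0729, without wild-type replicate 2). GTR2, a glucosinolate carrier of the same family, passed with the block at 0.58 (limma adjusted p = 0.0455).

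UDP-glycosyltransferases, enzymes that attach a sugar to hormones and other small molecules, held more called genes than any other list. Of 52 measured, 8 were higher, or 15.4% against 2.41% of all symbol-bearing probe sets, and 0 were lower; at an unadjusted p under 0.05, 17 were higher and 3 lower, and the list's median log2 change was 0.03. UGT73B1 (AT4G34138) read 6.76, 6.74 and 6.39 in wild type and 8.12, 7.90 and 7.54 in the triple mutant, 2.34-fold higher (log2 change 1.23, standard error 0.18, limma adjusted p = 0.00748). UGT73C7 (AT3G53160) read 4.55, 4.49 and 4.47 against 5.88, 5.66 and 5.52, 2.28-fold higher (log2 change 1.19, standard error 0.12, limma adjusted p = 0.00155). In both genes the highest wild-type array lay well below the lowest triple-mutant array, and the quadruple-mutant arrays, at 6.19 to 6.65 and 4.37 to 4.74, lay near wild type. UGT76B1 (AT3G11340), which acts on salicylic acid and isoleucic acid in defence, was 2.22-fold higher (log2 change 1.15, standard error 0.19, limma adjusted p = 0.0174).

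The neighbouring genes UGT73B5 and UGT73B4 rose by 0.93 and 0.75 (limma adjusted p = 0.0374 and 0.0153); they are close relatives, so their probes may share signal. The called members known to act on auxin or cytokinin were the auxin glucosyltransferase gene IAGLU (AT4G15550), at 9.25 to 9.35 in wild type and 9.81 to 9.95 in the triple mutant (log2 change 0.57, standard error 0.09, limma adjusted p = 0.0153), and the cytokinin N-glucosyltransferase gene UGT76C1 (AT5G05870), with a log2 change of 0.48 (standard error 0.10, limma adjusted p = 0.0489). UGT85A2 rose by 0.46 (limma adjusted p = 0.0262). With the block UGT71C1, UGT87A2 and UGT71C3 were called too, at log2 changes of 0.70, 0.61 and 0.46 (limma adjusted p = 0.0089, 0.00758 and 0.0407 with the block), which made 11 higher and 0 lower. UGT73B1 and UGT73C7 kept their calls in all 9 fits without 1 array. The others lost theirs in 1 to 7 of those fits: UGT73B4 without wild-type replicate 2 (adjusted p = 0.0627), UGT76B1 without triple-mutant replicate 1 or 3 (up to 0.0793), IAGLU in 3 fits (up to 0.0762, without triple-mutant replicate 1), UGT85A2 in 5, UGT73B5 in 6 and UGT76C1 in 7 (up to 0.101, 0.131 and 0.170, each without triple-mutant replicate 1).

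Among other enzymes of small-molecule metabolism single genes moved, in both directions. CYP71B26 (AT3G26290), a cytochrome P450, read 7.39, 6.60 and 6.93 in wild type and 8.58, 7.90 and 8.13 in the triple mutant, 2.35-fold higher (log2 change 1.23, standard error 0.21, limma adjusted p = 0.0174, but 0.0647 without triple-mutant replicate 1, and also lost without wild-type replicate 2). CYP51G2 (AT2G17330), of the sterol demethylase subfamily and listed by RefSeq as a transcribed pseudogene, went the other way, from 6.54, 6.53 and 6.45 to 5.24, 5.56 and 5.39, 2.16-fold lower (log2 change -1.11, standard error 0.12, limma adjusted p = 0.0019). In both the genotypes were well apart, and with 1 higher and 1 lower of 24 P450 genes the list's median was -0.05. With the block CYP71B6 (0.41) was also higher and CYP78A9 (-0.62) lower, at limma adjusted p = 0.0294 and 0.0295. ATGSTF13 (AT3G62760), a phi-class glutathione transferase, fell from 9.51, 9.81 and 9.60 to 8.64, 9.06 and 8.64 (log2 change -0.86, standard error 0.13, limma adjusted p = 0.00973), and stood at 9.94 to 10.10 in the quadruple mutant. It was the 1 called gene of 14 glutathione transferases, while GSTU16, GSTL3 and GSTU22 were higher with the block alone, at 0.59, 0.58 and 0.38 (limma adjusted p = 0.00477, 0.0406 and 0.0424 with the block).

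**Figure D3:**
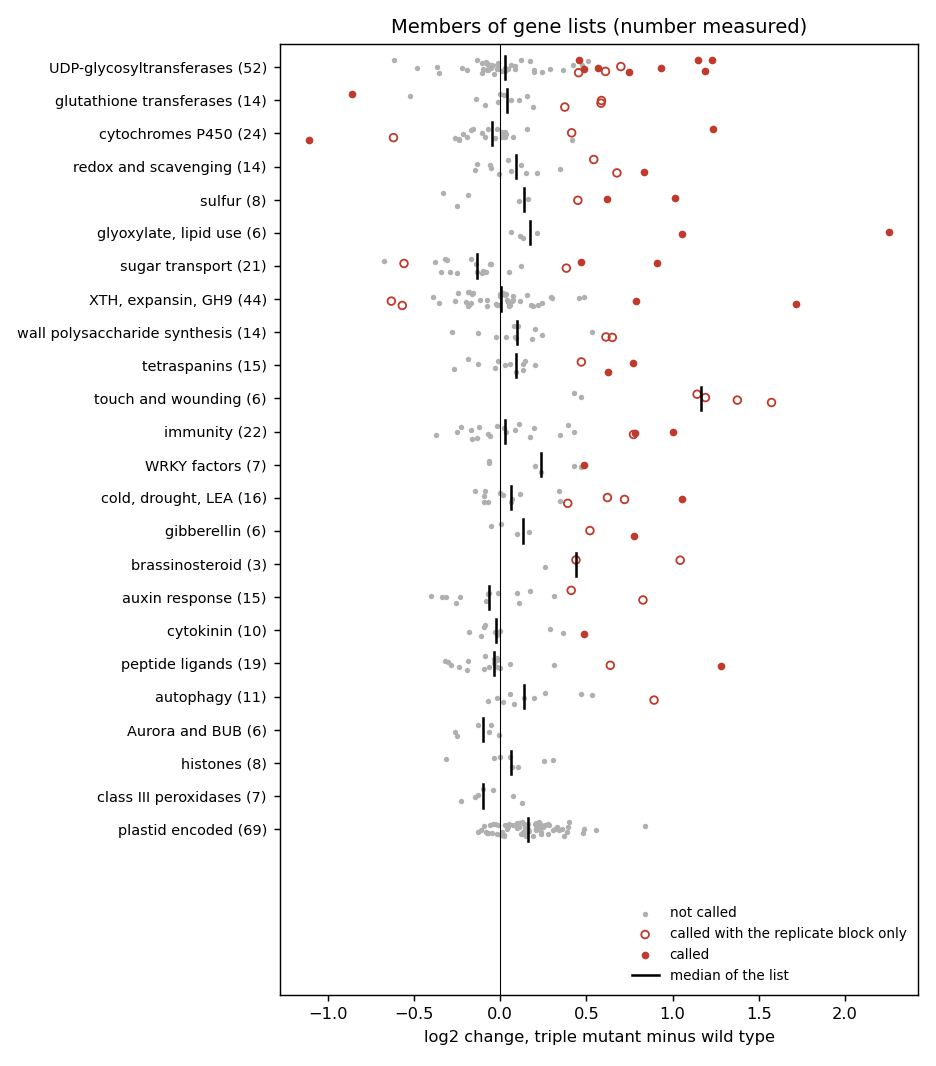
Log2 change of the triple mutant minus wild type (horizontal axis) for the measured members of 24 gene lists, with the number measured in brackets. Filled circles were called, open circles were called only with the replicate number as a block, grey points were not called, and the black line is the list's median; the touch and wounding list has the highest median drawn, 1.17, with no filled circle.

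Single genes of redox, sulfur and metal metabolism rose. UPB1 (AT2G47270), a bHLH factor known to set where root cells pass from division to elongation by repressing peroxidase genes, read 5.19, 4.72 and 4.87 in wild type and 6.32, 5.94 and 5.66 in the triple mutant, 2.07-fold higher (log2 change 1.05, standard error 0.22, limma adjusted p = 0.0496). Of the 7 class III peroxidases that could be found by name, which leaves out any known here by locus number alone, 0 were called (limma, with and without the block). At an unadjusted p under 0.05, 1 was lower, and their median log2 change was -0.10. PRXR1, the brightest of them, stood at -0.13 (limma adjusted p = 0.769). A mean log2 signal under 5 over the 9 arrays was found for 5 of the 7, so the list gives no reading of the whole family. ROXY1 (AT3G02000), a plant-specific glutaredoxin known from petal development, rose by 0.83 (standard error 0.18, limma adjusted p = 0.0497). Its relatives ROXY2 and GRX480 stood at 0.54 and 0.68 and passed only with the block (limma adjusted p = 0.00825 and 0.0278), so the redox list had 1 of 14 higher, or 3 with the block. SUFE2 (AT1G67810), which activates the cysteine desulfurase of iron-sulfur cluster assembly in plastids, read 8.57, 8.75 and 8.52 in wild type and 9.85, 9.78 and 9.27 in the triple mutant, 2.02-fold higher (log2 change 1.02, standard error 0.15, limma adjusted p = 0.00748).

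The sulfurtransferase gene STR18 (AT5G66170) rose by 0.62 (limma adjusted p = 0.0285), and with the block the ATP sulfurylase gene APS4, of sulfate activation, passed at 0.45 (limma adjusted p = 0.00881). The sulfur list thus had 2 of 8 higher, or 3 with the block, and 0 lower. MT1C (AT1G07610), a metallothionein that binds metal ions, rose by 0.70 (limma adjusted p = 0.0374) in the triple mutant and stood as high in the quadruple mutant, at 11.10 to 11.25 against 10.21 to 10.64 in wild type. It was the 1 called of 10 metal-related genes, whose median log2 change was -0.07, with 6 of them negative. LPR2 (AT1G71040), a multicopper oxidase known from the arrest of root growth on low phosphate, read 3.43 to 3.63 and 3.98 to 4.18 (log2 change 0.54, limma adjusted p = 0.0237). SUFE2 kept its call without any 1 array. The calls of UPB1 and MT1C ended in 7 of 9 such fits, with adjusted p up to 0.174 and 0.134 (both without wild-type replicate 2), those of ROXY1 and STR18 in 8 and 6 (up to 0.156 without triple-mutant replicate 1 and 0.0998 without wild-type replicate 2), and that of LPR2 in 3 (up to 0.103, without triple-mutant replicate 1).

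Wall-loosening enzymes held 2 higher genes, next to each other on the chromosome. XTH18 (AT4G30280), which cuts and rejoins the xyloglucan chains that tie cellulose together, read 5.54, 5.32 and 5.0 in wild type, 7.23, 6.79 and 6.98 in the triple mutant and between 4.95 and 5.35 in the quadruple mutant. It was 3.28-fold higher in the triple mutant (log2 change 1.71, standard error 0.16, limma adjusted p = 0.00122). XTH19 (AT4G30290), its neighbour and close relative, was much brighter, at 8.73 to 9.18 in wild type and 9.66 to 10.02 in the triple mutant (log2 change 0.79, standard error 0.16, limma adjusted p = 0.0434); shared hybridization between them was not tested. XTH18 passed in all 9 fits without 1 array and XTH19 in 1 of them (adjusted p up to 0.161, without triple-mutant replicate 1). The list of 44 XTH, expansin and endoglucanase genes had a median log2 change of 0.01. With the block 2 of them were lower, the expansin gene EXPA16 (-0.63) and the endoglucanase gene GH9B8 (-0.57), at limma adjusted p = 0.0235 and 0.00799. Of 14 genes that build cellulose and other wall polysaccharides 0 were called and 4 were higher at an unadjusted p under 0.05. CSLC04, a synthase of the xyloglucan backbone, and GAUT15, a galacturonosyltransferase relative, passed with the block at 0.65 and 0.61 (limma adjusted p = 0.00356 and 0.00667). In the list of hydroxyproline-rich wall proteins 0 of 4 were called by limma and 2 were lower at an unadjusted p under 0.05; SAH7 was lower with the block (-0.55, limma adjusted p = 0.026).

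The hormone lists held few calls. In gibberellin signalling, where receptors of the GID1 family bind the hormone and bring about the loss of DELLA repressors, GID1B (AT3G63010) read 5.53, 5.35 and 5.34 in wild type and 6.07, 6.07 and 6.41 in the triple mutant, 1.71-fold higher (log2 change 0.78, standard error 0.11, limma adjusted p = 0.00879). GID1A stood at 0.52 and passed with the block (limma adjusted p = 0.0152), while GID1C stood at 0.01; of 6 genes 1 was higher, or 2 with the block. Of 3 brassinosteroid-list genes 0 passed, although all 3 were higher at an unadjusted p under 0.05. EXO (AT4G08950), a growth gene known to respond to brassinosteroid, read 8.41, 8.45 and 9.42 in wild type and 9.65, 9.62 and 10.15 in the triple mutant. Number 3 was the highest array of both genotypes, and each triple-mutant array exceeded its wild-type counterpart (log2 change 1.04, limma adjusted p = 0.173, and 0.00246 with the block). BRH1, a RING finger gene named for its brassinosteroid response, passed with the block at 0.44 (limma adjusted p = 0.0369). BIM1 (AT5G08130), which is not in this list, encodes a bHLH partner of the brassinosteroid-activated factor BES1. It rose from 4.96, 4.84 and 5.0 to 6.05, 5.61 and 5.98 (log2 change 0.95, standard error 0.13, limma adjusted p = 0.00583).

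In the auxin response list 0 of 15 genes passed, with 3 higher and 3 lower at an unadjusted p under 0.05. ARL, an ARGOS relative that promotes cell expansion, and GH3.17, which joins auxin to amino acids, passed with the block at 0.83 and 0.41 (limma adjusted p = 0.00651 and 0.0303). Among 10 cytokinin genes UGT76C1, given above, was the 1 called. Of 3 ethylene genes 0 passed, with 1 higher at an unadjusted p under 0.05; it was RTE1, a regulator of the receptor ETR1, which passed with the block (0.50, limma adjusted p = 0.0286). GID1B and BIM1 kept their calls in all 9 fits without 1 array.

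Vascular and stem cell genes could be read at few points. CLE41 (AT3G24770), precursor of the phloem-made peptide TDIF that keeps cambial stem cells dividing and out of xylem fate through the receptor kinase PXY, read 6.11, 6.23 and 5.76 in wild type, 7.26, 7.72 and 6.98 in the triple mutant and 5.78, 5.93 and 5.61 in the quadruple mutant. It was 2.43-fold higher in the triple mutant (log2 change 1.28, standard error 0.19, limma adjusted p = 0.00763), and kept its call without any 1 array. CLE44, which encodes the same peptide, stood at 4.03, 4.65 and 4.43 in wild type and 4.49, 4.43 and 4.08 in the triple mutant, overlapping values near the lower end of the scale. AT4G28650, listed as PXL2, a relative of PXY, was higher with the block alone (0.35, limma adjusted p = 0.041). In the list of 19 peptide genes CLE41 was the 1 called, and RALFL32, of a family of peptides that alkalinize the wall, joined it with the block (0.64, limma adjusted p = 0.00442). FER, the receptor kinase known to bind such peptides, passed with the block at 0.39 (limma adjusted p = 0.0431). FER and AT4G28650 belong to a list of 6 receptor kinases, of which 0 were called by limma without the block and 1 was higher at an unadjusted p under 0.05.

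AGL42 (AT5G62165), a MADS-box gene expressed in the quiescent centre, read 6.04, 5.66 and 5.97 in wild type and 5.50, 5.09 and 5.19 in the triple mutant, lower in every same-numbered pair, and 6.66, 6.35 and 6.76 in the quadruple mutant, above wild type. Its log2 change of -0.63 did not pass (limma adjusted p = 0.0737) but did with the block (0.00516). The other measured stem cell markers were BBM and JKD, at log2 changes of 0.15 and -0.09. Outside CLE41 and AGL42 none of the 15 measured markers was called by limma with or without the block. They also include genes of root cap, epidermis, cortex, xylem, phloem, pericycle and green tissue, but only 1 to 3 for each cell type. The epidermis markers EXPA7 and EXPA18 had wild-type means of 4.10 and 3.74 and the pericycle marker LBD29 of 3.39, near the lower end of the scale. The lack of calls therefore says little about those cell types. LHW, a bHLH factor of vascular founding divisions, was bright and near level, at 8.75, 8.80 and 8.85 in wild type and 8.95, 8.77 and 9.07 in the triple mutant.

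Single genes of immune signalling rose. PUB22 (AT3G52450) and PUB23 (AT2G35930) encode U-box ubiquitin ligases that dampen immune responses. PUB22 read 6.75, 5.99 and 5.83 in wild type and 7.27, 7.08 and 7.24 in the triple mutant, 2.0-fold higher (log2 change 1.0, standard error 0.20, limma adjusted p = 0.0362), and PUB23 rose by 0.78 (standard error 0.15, limma adjusted p = 0.03). With the block the defensin-like gene LCR68 joined them (0.77, limma adjusted p = 0.0241), which made 3 of 22 immunity genes, from 2 without it. WRKY6 (AT1G62300), a transcription factor of senescence and defence, was 1.4-fold higher (log2 change 0.49, limma adjusted p = 0.0365), the 1 called of 7 WRKY genes. PUB22 and WRKY6 lost their calls in 8 of the 9 fits without 1 array and PUB23 in 5, with adjusted p up to 0.136 (without wild-type replicate 2), 0.131 (without triple-mutant replicate 1) and 0.104 (without triple-mutant replicate 2).

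The touch and wounding list moved with the array numbers. All 6 measured members were positive, with median log2 changes of 1.17 for the triple mutant and -0.02 for the quadruple mutant, yet 0 of 6 passed by limma without the block; 4 were higher at an unadjusted p under 0.05, and 4 passed with the block. CML38 (AT1G76650), a calmodulin-like calcium sensor induced by wounding, read 9.20, 8.30 and 7.17 on wild-type arrays 1, 2 and 3 and 10.20, 9.60 and 9.0 on the triple-mutant arrays of the same numbers. The groups overlap, but each triple-mutant array exceeded the wild-type array of its number, by 0.99, 1.30 and 1.83 (log2 change 1.38, limma adjusted p = 0.224, and 0.00191 with the block). STZ (AT1G27730), a zinc finger repressor induced by many stresses, read 9.22, 8.75 and 7.68 against 9.98, 9.64 and 9.47 (log2 change 1.14, limma adjusted p = 0.149, and 0.00779 with the block). The calmodulin-like genes AT1G76640 (1.57) and CML37 (1.19) passed with the block likewise (limma adjusted p = 0.00292 and 0.0145); AT1G76640 adjoins CML38 and is related to it, so their signals may not be separate. In all 3 genotypes these 4 genes were highest on the array numbered 1 and lowest on that numbered 3. ORA47, an ERF factor of the wound response, had the same order in wild type and the triple mutant, at 7.74, 6.77 and 5.07 against 8.56, 7.80 and 7.76, and passed in neither fit (limma adjusted p = 0.31, and 0.0711 with the block). The labels do not say what the array numbers stand for.

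**Figure D4:**
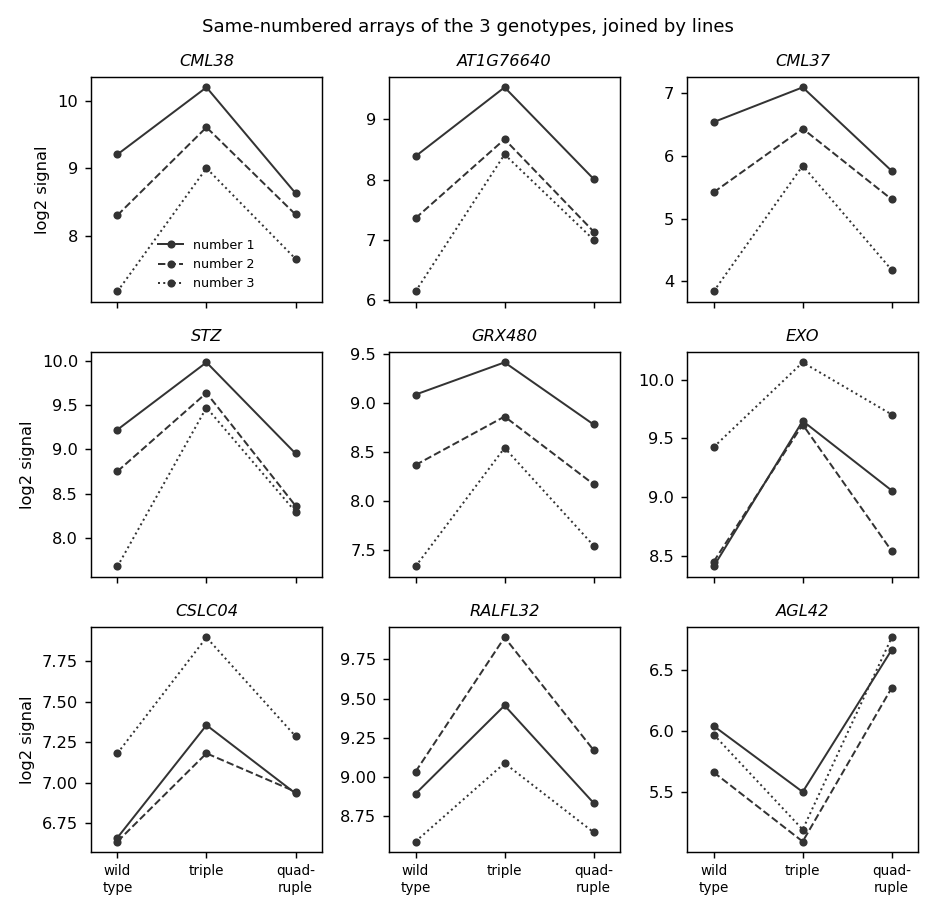
Log2 signal (vertical axis, its own range in each panel) of 9 genes that passed with the replicate block alone, on the wild-type, triple-mutant and quadruple-mutant arrays; lines join arrays of the same number. Each line rises from wild type to the triple mutant in 8 panels and falls in that of AGL42, while in CML38, CML37, STZ and GRX480 array number 1 is the highest and number 3 the lowest in each genotype.

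Lists of dehydration, light and membrane genes gave 1 or 2 calls each. LTI30 (AT3G50970), a dehydrin that protects membranes in cold, read 8.87, 9.09 and 8.72 in wild type and 9.97, 10.42 and 9.46 in the triple mutant, 2.08-fold higher (log2 change 1.06, standard error 0.21, limma adjusted p = 0.0362), a call lost in 8 of 9 fits without 1 array (adjusted p up to 0.124, without triple-mutant replicate 1). It was the 1 called of 16 cold, drought and LEA genes; with the block COR27 (0.72), LEA18 (0.62) and the dehydrin gene AT1G54410 (0.39) were higher too, at limma adjusted p = 0.0341, 0.0341 and 0.0312. FHL (AT5G02200), which carries phytochrome A into the nucleus, rose by 0.54 (limma adjusted p = 0.0174). Its mean signals, 3.44 in wild type and 3.98 in the triple mutant, lay near the lower end of the scale, as did those of LEA18, at 3.24 and 3.86. The bZIP factor HYH, a partner of HY5 in light signalling, passed with the block alone (0.89, limma adjusted p = 0.0407).

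The tetraspanins TET8 (AT2G23810) and TET6 (AT3G12090), proteins that organize membrane domains, read 7.34 to 7.62 and 5.42 to 5.79 in wild type and 8.09 to 8.40 and 6.19 to 6.37 in the triple mutant. They rose by 0.77 and 0.62 (limma adjusted p = 0.0104 and 0.0209), 2 of 15 measured, with TET10 added by the block (0.47, limma adjusted p = 0.0498). Further calls outside these groups were PRN (1.0), a cupin that interacts with a G-protein alpha subunit, NANA (0.96), a plastid aspartic protease, ATPC1 (0.88), the gamma subunit of the chloroplast ATP synthase, and the transcription factor gene bZIP44 (0.62), with limma adjusted p = 0.025, 0.00397, 0.027 and 0.0222. NANA, at 4.58 to 4.85 and 5.49 to 5.81, kept its call in all 9 fits without 1 array. TET8 lost its call without triple-mutant replicate 1 (adjusted p = 0.0519), TET6, FHL, PRN, bZIP44 and ATPC1 in 2, 3, 4, 4 and 5 fits (up to 0.0817, 0.08, 0.0656, 0.0814 and 0.102, without triple-mutant replicate 2 for bZIP44 and replicate 1 for the others). For bZIP44 the quadruple mutant, at 9.20 to 9.59, was as high as the triple mutant, at 9.20 to 9.40, and both lay above wild type, at 8.64 to 8.69.

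Named falls were few and did not gather in one list. Beside PHV, CYP51G2, ATGSTF13 and OLEO3, the 4 lower genes with a symbol were DL1B (AT3G61760), REV7 (AT1G16590), HEMA3 (AT2G31250) and TRM23 (AT4G25430). DL1B, a dynamin-like protein of membrane trafficking, read 5.36, 5.40 and 5.41 in wild type and 4.71, 4.79 and 4.82 in the triple mutant, 1.53-fold lower (log2 change -0.62, standard error 0.08, limma adjusted p = 0.00378), in a list of 34 trafficking genes with 0 higher and 1 lower. HEMA3, a glutamyl-tRNA reductase gene of heme and chlorophyll synthesis, read 5.16, 5.11 and 5.13 against 4.39, 4.75 and 4.42 (log2 change -0.61, limma adjusted p = 0.0171). In both genes the wild-type arrays lay close together, and no triple-mutant array reached them. REV7, a subunit of a DNA polymerase that copies past damage, stood at -0.61 and TRM23, of the family of TON1-recruiting proteins, at -0.47 (limma adjusted p = 0.0236 and 0.0354). DL1B passed in all 9 fits without 1 array, whereas HEMA3, REV7 and TRM23 lost their calls in 3, 4 and 6, with adjusted p up to 0.0788 (without triple-mutant replicate 1), 0.0684 and 0.111 (both without wild-type replicate 2).

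Most of the strongest changes belong to genes that the annotation used here gives by locus number only. AT5G56380 read 6.13, 6.15 and 6.05 in wild type and 3.99, 3.93 and 3.86 in the triple mutant, 4.54-fold lower (log2 change -2.18, standard error 0.08, limma adjusted p = 8.49e-07), and 6.37 to 6.47 in the quadruple mutant. AT5G55790 read 7.77, 7.54 and 7.62 against 6.35, 5.91 and 6.01 (log2 change -1.56, standard error 0.12, limma adjusted p = 4.51e-04). AT1G52060 was bright throughout, at 11.55, 11.55 and 11.67 against 10.80, 10.98 and 11.02 (log2 change -0.65, standard error 0.09, limma adjusted p = 0.00523). The 3 genes fell with no overlap between the genotypes, as was so for all 393 calls, and kept their calls without any 1 array. On the higher side AT4G09760 read 4.24, 4.11 and 3.72 against 6.36, 6.71 and 5.94, 4.96-fold higher (log2 change 2.31, standard error 0.19, limma adjusted p = 4.87e-04). AT5G12050 read 5.15, 4.87 and 4.89 against 6.73, 6.62 and 7.0 (log2 change 1.82, standard error 0.16, limma adjusted p = 9.01e-04) and lay between the other genotypes in the quadruple mutant, at 5.50 to 6.10. AT2G25450 read 8.10, 8.31 and 8.47 in wild type, 9.86, 9.58 and 9.67 in the triple mutant and between 7.32 and 7.82 in the quadruple mutant; it was thus high in one mutant and low in the other. These 3 rises likewise passed in all 9 fits without 1 array. AT4G30170, at 1.89, had the widest gap between the mutants among the named rises: its 8.31, 7.59 and 8.07 in the triple mutant stood against 5.21, 4.46 and 5.24 in the quadruple mutant and 6.08, 5.41 and 6.82 in wild type (limma adjusted p = 0.0227 for triple mutant against wild type, and up to 0.0964 without triple-mutant replicate 1; also lost without triple-mutant replicate 3 or wild-type replicate 2). For AT1G74770, which fell by 0.93, a second and dimmer probe set stood at -0.27 and did not pass (limma adjusted p = 0.241).

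Groups of the dividing cell gave no call by limma. Of 6 Aurora kinase and BUB checkpoint genes 0 were called and 2 were lower at an unadjusted p under 0.05; all 6 log2 changes were negative, from -0.26 to -0.01, with a median of -0.10. AUR1, which acts on mitotic chromosomes and the spindle, read 9.70, 9.61 and 9.60 in wild type and 9.56, 9.50 and 9.46 in the triple mutant (log2 change -0.13, standard error 0.08, limma adjusted p = 0.499). Of 8 histone genes and 4 DNA replication genes 0 were called and 0 passed at an unadjusted p under 0.05, with medians of 0.06 and 0.03. HTB4, a histone H2B gene, read 12.80, 12.50 and 12.52 against 12.75, 12.68 and 12.58, and PRL, a subunit of the replicative helicase, 9.44, 9.56 and 9.40 against 9.43, 9.43 and 9.47. Of 12 tubulin, kinesin and related genes 0 were called, 2 were higher at an unadjusted p under 0.05, and the tubulin gene TUB1 (0.72) and the tubulin-folding cofactor POR (0.41) passed with the block (limma adjusted p = 0.0152 and 0.0169). With the block 0 of the Aurora, BUB, histone and replication genes passed.

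Further lists had 0 called by limma. Of 24 chromatin genes and 18 actin cytoskeleton genes 2 and 2 were higher and 0 and 1 lower at an unadjusted p under 0.05, and 0 passed with the block. Of 22 beta-glucosidases 2 were higher at that level and 0 passed with the block; PYK10, the main protein of root ER bodies, stood at 11.88 to 12.30 in wild type and 12.30 to 12.72 in the triple mutant (log2 change 0.37, limma adjusted p = 0.31). Of 10 genes of phenylpropanoid and flavonoid synthesis 0 passed at any of these levels. A mean log2 signal under 5 over the 9 arrays was found for 8 of these 10 and for 17 of the 22 beta-glucosidases, so changes in them could have been missed. Of 69 plastid-encoded genes 57 were positive and 4 were higher at an unadjusted p under 0.05, with a median of 0.16 that was 0.06 after median centring. Of 11 autophagy genes 2 were higher at that level, and ATG8B, which coats autophagosomes, passed with the block (0.89, limma adjusted p = 0.00801). Of 14 respiration genes 1 was higher and 1 lower at that level, and NDB2, an alternative NADH dehydrogenase of mitochondria, was higher with the block (0.56, limma adjusted p = 0.00607). Of 44 protease-list genes 4 were higher and 2 lower at that level, and the carboxypeptidase-like gene scpl35 passed with the block (0.58, limma adjusted p = 0.0249).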

How the data were processed

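The deposited table holds log2 signals that the authors made with Affymetrix Expression Console and RMA (limma is also named), per the submitters' processing notes; no version is stated there. RMA corrects background, brings all arrays to one distribution and summarises the probes of a set, so changes are relative to other transcripts. Of 22810 probe sets, 64 controls were set aside. A mean per genotype was fitted over 9 arrays with limma 3.58.1 in R 4.3.3 (6 residual degrees of freedom, empirical Bayes, Benjamini-Hochberg over 22746 probe sets, threshold 0.05), after a test on simulated data.

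Genes came from the platform annotation, with symbols updated through RefSeq of TAIR10.1: 13513 probe sets have 1 gene, 503 several and 8730 are unlisted and unnamed here; 77 found no RefSeq match. The brightest probe set stood for a gene.

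Members and lists were chosen with earlier results of these data known. Of 73 lists of gene names 59 had 3 measured members or more; 63 same-name matches of other genes were taken out by hand after values were seen. Named were PHV, genes among the 25 highest and 25 lowest called changes, and per list up to 8 called genes, 3 called with the block alone and, where none was called, 3 bright ones. The 25 highest and 25 lowest had to have all 3 triple-mutant arrays on one side of the 3 wild-type arrays, which all 393 calls met. A lack of overlap is therefore no added support for them.

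Same-numbered triple-mutant and wild-type arrays deviated together (correlations 0.273, 0.330 and 0.408 across probe sets), so the titles' numbers were read as pairs. Other-numbered arrays correlated at 0.014 or below. Deviations were taken from each genotype's own mean and so cancel out within it, which by itself lowers the other-numbered values. They are therefore no separate evidence of pairing. Alternatives were this block, a mean log2 value of at least 5, median centring, quantile normalization, robust estimation with a variance trend, fits of 6 arrays alone, and leaving out each array. The number of arrays limits the precision.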

Additional observations from a re-analysis of the deposited data

Results flagged for a closer look

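The hybridization spike-in controls, which take no part in the comparison, lay higher on the triple-mutant arrays than on the wild-type arrays, by a mean of 0.225 on the log2 scale. The 18 control probe sets averaged 10.07, 10.04 and 9.83 on the wild-type arrays, 10.17, 10.16 and 10.29 on the triple-mutant arrays and 10.02, 10.02 and 9.94 on the quadruple-mutant arrays, so the 3 triple-mutant arrays were above the other 6. Their part in the rises of the triple mutant was not tested.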

How the results depend on the processing

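Against 393 called probe sets (337 higher, 56 lower), the replicate block gave 1152 (941 higher, 211 lower), and every probe set called without it was called with it; the block changed no call of a gene named as called. The 6 compared arrays alone gave 167 (142 higher, 25 lower), and 753 (656 higher, 97 lower) with the block. Median centring gave 316, with 214 higher and 102 lower, so the share higher was 67.7% against 85.8%; the median of all probe sets was then -0.12 against -0.02. Quantile normalization gave 325, a mean log2 value of at least 5 gave 362, and the variance trend 437. Leaving out each array gave 182 to 647 called, 156 to 445 higher and 26 to 202 lower. Wild-type replicate 1 raised the counts when left out, and the cause was not tested. Of 46 called genes with a symbol, 10 lost their call after quantile normalization, 16 after median centring, 3 with the variance trend and 25 in the 6 arrays alone, where the smaller number of arrays leaves fewer degrees of freedom. None of the genes called in either fit changed sign under any of these settings. Values near 4 on the log2 scale lie near the lower end of the signal, where no detection call was used.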

Other observations

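Called genes were sometimes neighbours. Of 5809 pairs of adjacent genes that were both measured, 6 pairs were both called: AT1G62290 with WRKY6, OCT5 with AT1G79420, UGT73B5 with UGT73B4, XTH18 with XTH19, AT5G55780 with AT5G55790, and AT5G56370 with AT5G56380. The first 4 pairs were higher in both genes and the last lower in both, while AT5G55780 was higher (log2 change 0.66, limma adjusted p = 0.0497, and 0.155 without wild-type replicate 2) beside the lower AT5G55790 (-1.56).

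Lower genes lay unevenly over the genome. Of 31 lower genes that could be placed, 12 were on chromosome 5, or 0.419% of the genes measured there, against 0.107% to 0.249% on the others. A stretch of that chromosome from AT5G54860 to AT5G56380, chosen after the values were seen and so not tested, spans 165 protein-coding genes of which 77 were measured; 5 of these were lower and 1 higher, against 26 lower of 12141 elsewhere. The 5 were AT5G54860 (-0.66), AT5G55180 (-0.70), AT5G55790 (-1.56), AT5G56370 (-0.76) and AT5G56380 (-2.18). In the quadruple mutant the same genes stood at -0.01, 0.14, -0.0022, -0.08 and 0.33 against wild type.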
